A study of Citrullus lanatus with 36 samples.

Results

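Flesh of CmNOR/Cmnor melons was compared with WT flesh after 6 d of postharvest storage, with 3 RNA libraries for each genotype. All 25121 genes that carry an identifier in the deposited expression table were taken, which are the same 25121 genes as in the other 30 of the 36 libraries of the series. Of these genes, 24901 were above 0 in at least 1 of the 36 libraries and were tested, and 220 were at 0 everywhere. The CmNOR/Cmnor fruits are heterozygous for a CRISPR knockout of CmNOR and came from a cross of the homozygous Cmnor mutant with WT, and the WT fruits are of the oriental melon cultivar BY9H in which the mutation was made. All fruits of both groups were harvested at 36 days after pollination (DAP) and then kept together in a humid room at about room temperature, not chilled. The groups set beside them are CmNOR/Cmnor and WT flesh at 36 DAP, the day of harvest, and Cmnor flesh after the same 6 d of storage. The labels name watermelon as the organism, whereas the study and the gene identifiers are those of melon. The labels do not say whether the 3 libraries of a group came from separate fruits. The study's methods speak of 3 melons per genotype at each time point. The p-values therefore measure the spread between libraries within groups, taken over all 12 groups of the series, and not a known spread between fruits. The sources used here do not give the identifier of CmNOR, so no level of the edited gene is given as a check of the labels.

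NOR proteins belong to the NAC family of plant transcription factors and are known, from tomato in particular, as activators of fruit ripening. Melon of this type is climacteric: ethylene made by ACC synthase and ACC oxidase drives ripening, and after harvest the flesh goes on softening as pectin is taken apart and loses water. A change in the RNA level of a bulk sample can come from fewer cells of a type or from less RNA per cell, and these cannot be told apart here.

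After storage, CmNOR/Cmnor flesh held several times more RNA than WT flesh of 1 ATP sulfurylase gene and 2 APS reductase genes, which act in the first steps of sulfate reduction, of a polygalacturonase gene that stood lower in CmNOR/Cmnor at harvest, and of NCED3, the gene of the step that commits to abscisic acid. It held less RNA of the wax gene FAH, the dehydrin gene DHN1, an acid invertase gene and the receptor-like kinase gene RLP. Of the 24901 genes tested, 113 were differentially expressed and higher in CmNOR/Cmnor (0.454%) and 225 were differentially expressed and lower (0.904%), where a differentially expressed gene (DEG) passes an adjusted p of 0.05 with a log2 fold change of 1 or more either way. At the adjusted p alone, 2732 genes were called (11%), of which 700 were higher (2.81%) and 2032 lower (8.16%). These calls and the list counts below take the spread from all 36 libraries. A fit of only the 6 libraries compared called 393 genes, 114 higher and 279 lower. Values are FPKM, which are fragments scaled for transcript length and library size, tested as log2(FPKM + 1). On that scale the fold changes of low genes come out too small. The groups did not overlap in 110 of the 113 higher and 212 of the 225 lower DEGs, against 24% of all tested genes (6.13% higher and 17.8% lower). The DEGs were chosen on these same libraries, so this separation is not independent evidence. The split into higher and lower calls depended on the scaling of the libraries: 25.6% of the called genes were higher with FPKM as deposited, 41.2% after upper-quartile scaling and 53.1% after scaling to the same median. The DEGs were 147 higher and 201 lower after upper-quartile scaling and 180 higher and 192 lower after scaling to the same median. The median log2 fold change of the 13718 genes that averaged 1 FPKM or more was -0.10, and small decreases are read below against this shift. The DEGs were spread over all chromosomes, from 1.07% of the tested genes on chromosome 11 to 1.89% on chromosome 7.

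Depth was estimated from the steps between low FPKM values at 26920000 to 33080000 fragments per storage library. At that depth a single fragment on 1 kb of transcript gives 0.0302 to 0.0371 FPKM. The libraries at 36 DAP differed by genotype, at 32460000, 32860000 and 33880000 fragments in CmNOR/Cmnor, against 24040000, 17680000 and 25040000 in WT. The part of this depth difference in the harvest and interaction calls was not tested. Replicates correlated with r of 0.990 to 0.994 in CmNOR/Cmnor and 0.986 to 0.993 in WT (across 15407 genes, which are not independent replicates). The first principal component took 52.3% of the variance and separated the genotypes, with scores of 18.2 to 24.6 in CmNOR/Cmnor and -27.6 to -14.1 in WT. The second took 18.5% and set WT replicate 1 apart, at 23.5 against -15.6 and -13.6 in the other WT libraries. In 148 genes WT replicate 1 stood at least 1 log2 unit above both other WT libraries, against 13 and 48 genes for WT replicates 2 and 3 and 1 to 35 genes for the CmNOR/Cmnor libraries. Of these 148 genes, 53 are among the 225 lower DEGs. Without WT replicate 1 there were 125 higher and 183 lower DEGs, and 99 of the 113 higher and 148 of the 225 lower DEGs remained. Values without this library are given below wherever a call rested on it.

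The 15 largest increases were taken only from called genes whose groups did not overlap. Among them were 3 genes linked to sulfur, described below, which are an ATP sulfurylase, an APS reductase and SULFUR DEFICIENCY-INDUCED 1. Several kinases and proteins of unknown role were also among them. The largest increase was that of MELO3C031646.2, which carries no description, at 15.1, 13 and 8.57 FPKM in CmNOR/Cmnor flesh, against 0, 1.83 and 0.189 FPKM in WT flesh (log2 fold change 3.11 ± 0.31 (SE), adjusted p = 9.5e-08). It was at 0, 0 and 0.553 FPKM in CmNOR/Cmnor at harvest and at 0 in all 3 WT libraries there. The LIM domain protein gene GLIM1a (MELO3C018524.2), a member of a family that bundles actin filaments in other plants, stood at 32.8, 18.9 and 25.5 FPKM in CmNOR/Cmnor flesh, against 5.14, 3.57 and 3.32 FPKM in WT flesh. All 3 CmNOR/Cmnor libraries lay far above WT (log2 fold change 2.399, adjusted p = 1.33e-10), while at harvest no library of either genotype passed 0.304 FPKM. The receptor-like cytoplasmic kinase gene CDG1 (MELO3C011783.2), named in Arabidopsis for a role in brassinosteroid signalling, stood at 111, 65.2 and 95.9 FPKM in CmNOR/Cmnor flesh, against 16.5, 12.3 and 19.3 FPKM in WT flesh (log2 fold change 2.42, adjusted p = 6.54e-09). It was higher at harvest too, with 44.3, 44.6 and 51.3 FPKM in CmNOR/Cmnor flesh, against 9.38, 5.65 and 8.41 FPKM in WT flesh, and the interaction term, which is the log2 fold change after storage minus that at harvest, did not pass the test (-0.04, adjusted p = 1). CHUP1 (MELO3C006756.2), which in Arabidopsis holds chloroplasts to the plasma membrane, stood at 6.11, 5.19 and 4.85 FPKM in CmNOR/Cmnor flesh, against 0.48, 0.205 and 0.324 FPKM in WT flesh (log2 fold change 2.26, adjusted p = 1.01e-06). PR1 (MELO3C018536.2), a marker of defence responses, reached 27.3, 18.2 and 11.3 FPKM in CmNOR/Cmnor flesh, against 4.3, 2.13 and 2.84 FPKM in WT flesh, and although the groups did not overlap its call was weak (log2 fold change 2.24, adjusted p = 0.0216) and was lost in 4 of the 6 fits that left out a library.

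**Figure D1:**
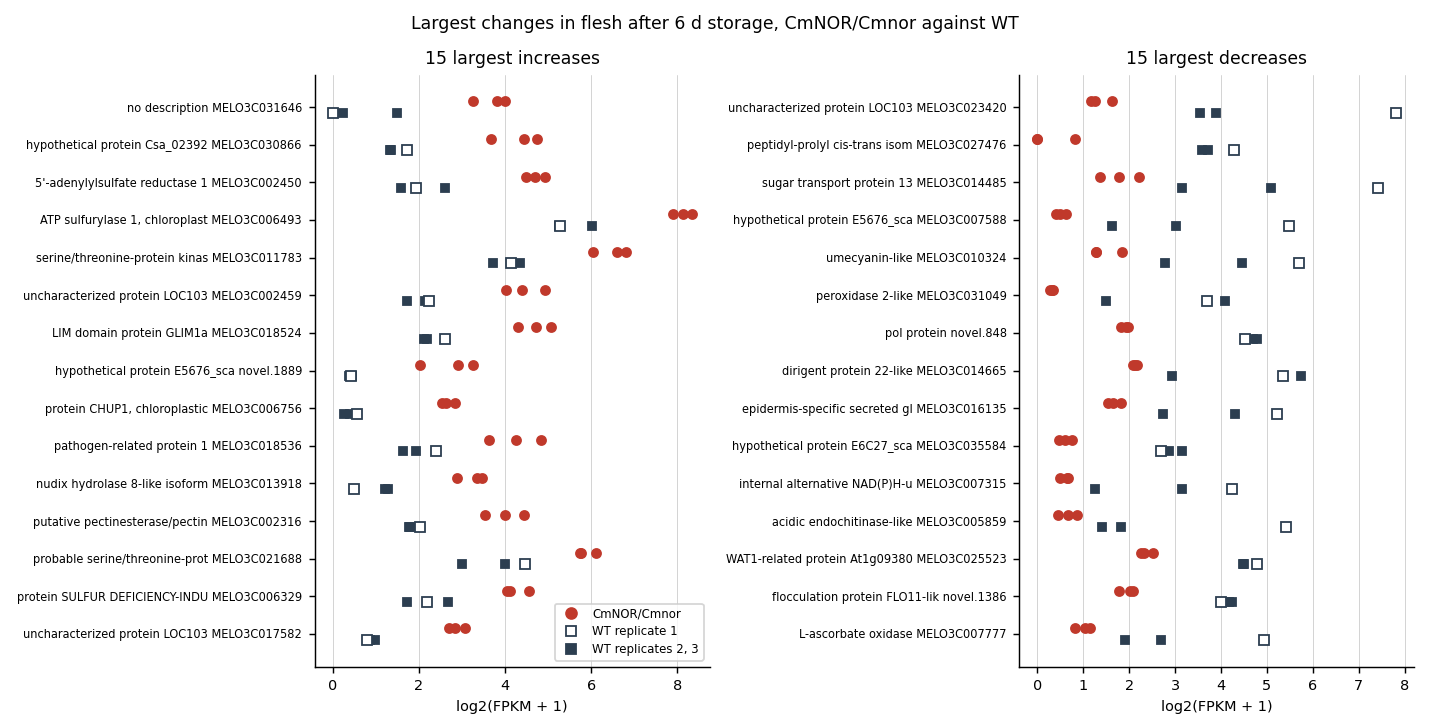
log2(FPKM + 1) in each of the 6 storage libraries for the 15 genes with the largest increases (left) and the 15 with the largest decreases (right) among called genes whose groups do not overlap. Circles are CmNOR/Cmnor, filled squares WT replicates 2 and 3, and open squares WT replicate 1, which stands to the right of the other WT libraries in many of the decreases.

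The 15 largest decreases were likewise taken only from called genes whose groups did not overlap. Some were even across the WT libraries and others were led by WT replicate 1. The entry described as cyclophilin CYP21-1 (MELO3C027476.2) spans only 2712419 to 2712611 on chromosome 0 and may be part of a gene. Its described family helps proteins fold. The entry stood at 0, 0.768 and 0 FPKM in CmNOR/Cmnor, against 18.3, 11 and 12 FPKM in WT (log2 fold change -3.58 ± 0.14 (SE), adjusted p = 9.95e-16). It was nearly absent from CmNOR/Cmnor flesh and level across the WT libraries, and was at 0 in both genotypes at harvest. A transcribed locus outside the annotation, which is described as a pol protein and thus as part of a retroelement, stood at 2.81, 2.52 and 2.95 FPKM in CmNOR/Cmnor flesh, against 21.8, 26.7 and 24.7 FPKM in WT flesh (log2 fold change -2.75, adjusted p = 2.99e-10). The WAT1-related transporter gene MELO3C025523.2 stood at 3.98, 4.74 and 3.75 FPKM in CmNOR/Cmnor flesh, against 26.5, 21.4 and 21.5 FPKM in WT flesh, again with even WT libraries (log2 fold change -2.22, adjusted p = 1.91e-08). By contrast sugar transport protein 13 (MELO3C014485.2), whose Arabidopsis counterpart takes up hexoses under stress, stood at 1.59, 3.66 and 2.43 FPKM in CmNOR/Cmnor flesh, against 169, 7.84 and 33.1 FPKM in WT flesh. WT replicate 1 was many times above the other WT libraries, yet all 3 lay above CmNOR/Cmnor (log2 fold change -3.43, adjusted p = 0.000475 with all libraries and log2 fold change -2.33, adjusted p = 0.00485 without WT replicate 1). The same held for MELO3C023420.2, a protein of unknown role, at 2.08, 1.39 and 1.24 FPKM in CmNOR/Cmnor flesh, against 224, 13.8 and 10.6 FPKM in WT flesh (log2 fold change -2.37, adjusted p = 7.39e-06 without WT replicate 1). Umecyanin-like MELO3C010324.2, a copper protein of the plastocyanin family, stood at 2.59, 1.43 and 1.43 FPKM in CmNOR/Cmnor flesh, against 50.8, 5.89 and 20.8 FPKM in WT flesh, where the WT libraries were uneven but all above CmNOR/Cmnor. The dirigent protein 22-like gene MELO3C014665.2, of a family that steers the coupling of lignans, stood at 3.21, 3.34 and 3.51 FPKM in CmNOR/Cmnor flesh, against 39.6, 6.65 and 52 FPKM in WT flesh (log2 fold change -2.55, adjusted p = 2.62e-05), where WT replicate 2 was the low one. Without WT replicate 1 all 15 of these decreases passed the test, 12 of them with a smaller log2 fold change and 3 with one at least as large.

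Sulfur metabolism had the largest share of called members among the lists with at least 20 tested genes, and an ATP sulfurylase and an APS reductase gene of it are among the 15 largest increases. Plants activate sulfate with ATP sulfurylase to adenosine 5'-phosphosulfate (APS), which APS reductase reduces towards sulfide for the synthesis of cysteine, or which APS kinase sends to sulfation reactions. The ATP sulfurylase 1 gene MELO3C006493.2 (Melon (DHL92) v3.6.1, chromosome 6, 3644566 to 3647611) stood at 238, 281 and 321 FPKM in CmNOR/Cmnor flesh, against 37.6, 37.1 and 63.6 FPKM in WT flesh. The lowest CmNOR/Cmnor library was above the highest WT library by a wide margin, and the ratio of the means was 6.07 ± 2.19 (log2 fold change 2.61 ± 0.17 (SE), adjusted p = 2.17e-11). The APS reductase 1 gene MELO3C002450.2 (chromosome 12, 23943328 to 23946501) stood at 25, 21.5 and 29.6 FPKM in CmNOR/Cmnor flesh, against 2.82, 2.01 and 5.11 FPKM in WT flesh (log2 fold change 2.67 ± 0.21 (SE), adjusted p = 1.27e-09). A further APS reductase gene, MELO3C007398.2, stood at 30.6, 32.5 and 39.6 FPKM in CmNOR/Cmnor flesh, against 9.04, 7.32 and 15.8 FPKM in WT flesh, with no overlap (log2 fold change 1.65, adjusted p = 7.02e-07). SULFUR DEFICIENCY-INDUCED 1 (MELO3C006329.2), which in Arabidopsis rises when sulfur is short and represses glucosinolate synthesis, stood at 22.7, 15.7 and 16.4 FPKM in CmNOR/Cmnor flesh, against 3.59, 2.32 and 5.37 FPKM in WT flesh (log2 fold change 2.05, adjusted p = 9.68e-07). The serine acetyltransferase gene MELO3C024900.2, which makes the carbon skeleton for cysteine, stood at 35.8, 44.3 and 42.6 FPKM in CmNOR/Cmnor flesh, against 27.1, 24.7 and 32.2 FPKM in WT flesh (log2 fold change 0.53, adjusted p = 0.00398; named after its values were seen).

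**Figure D2:**
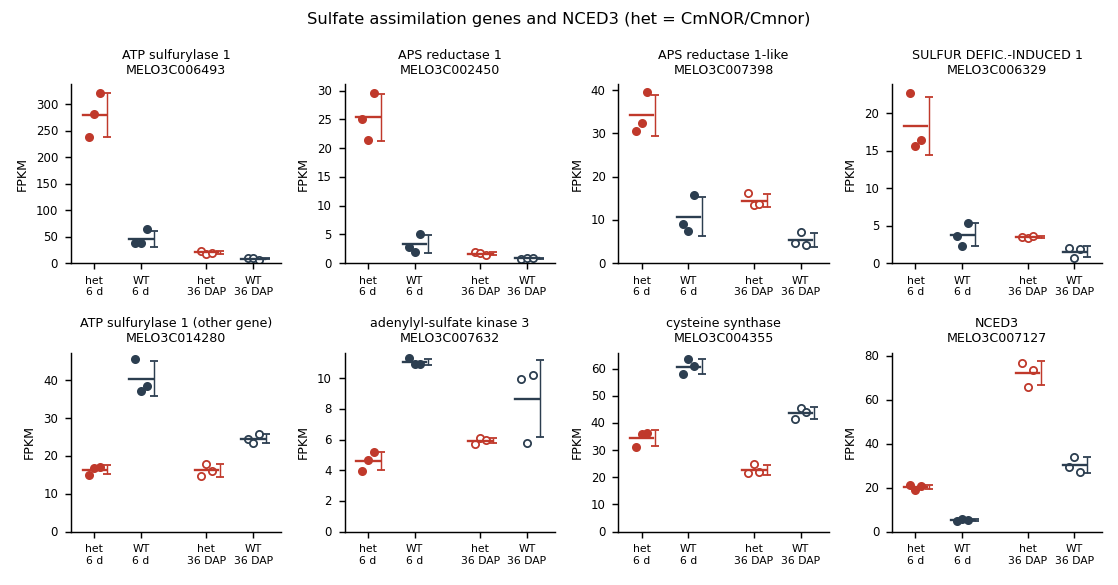
FPKM of 7 sulfur genes and NCED3 in each library, with CmNOR/Cmnor (het, red) left of WT (dark) after 6 d of storage (filled) and at 36 DAP (open). Horizontal lines are means and bars are SD of 3 libraries. The first 4 genes and NCED3 are higher in CmNOR/Cmnor after storage, and the other 3 sulfur genes are lower.

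Other genes of the same pathway went the opposite way. A second ATP sulfurylase 1 gene, MELO3C014280.2, stood at 15, 16.9 and 17.1 FPKM in CmNOR/Cmnor flesh, against 45.7, 37.1 and 38.6 FPKM in WT flesh (log2 fold change -1.25 ± 0.10 (SE), adjusted p = 3.05e-09). The adenylyl-sulfate (APS) kinase 3 gene MELO3C007632.2 stood at 3.95, 4.7 and 5.17 FPKM in CmNOR/Cmnor flesh, against 11.3, 11 and 11 FPKM in WT flesh (log2 fold change -1.11, adjusted p = 1.71e-05). The cysteine synthase gene MELO3C004355.2, of the last step, stood at 31.2, 36.1 and 36.3 FPKM in CmNOR/Cmnor flesh, against 57.9, 63.6 and 60.8 FPKM in WT flesh, below WT without overlap (log2 fold change -0.80, adjusted p = 8.37e-06). A pair of neighbouring cysteine synthase-like genes on chromosome 2, named after their values were seen, parted. MELO3C015398.2 stood at 23.7, 16.9 and 27.7 FPKM in CmNOR/Cmnor flesh, against 8.24, 5.8 and 7.88 FPKM in WT flesh (log2 fold change 1.505, adjusted p = 7.08e-07). MELO3C015399.2 stood at 81.4, 73.3 and 79 FPKM in CmNOR/Cmnor flesh, against 151, 132 and 124 FPKM in WT flesh (log2 fold change -0.79, adjusted p = 0.0157). The sources used here do not say how reads shared between such copies were counted, so their split is uncertain. Over the 57 tested genes of the KEGG pathway of sulfur metabolism, 9 were higher and 11 lower, so that 35.1% were called, against 11% of all genes. The 11 lower include genes whose descriptions name no step of sulfur metabolism, such as the BTB/POZ protein NPY4. With upper-quartile scaling the list had 10 higher and 8 lower, and 9 higher and 9 lower without WT replicate 1. At harvest the first ATP sulfurylase gene had 22.8, 17.4 and 19.8 FPKM in CmNOR/Cmnor flesh, against 9.27, 9.09 and 6.64 FPKM in WT flesh, a lower level in both genotypes. Its difference from WT was larger after storage (interaction term 1.44, adjusted p = 0.000213). The APS reductase gene MELO3C002450.2 differed likewise (interaction term 2.13, adjusted p = 2.94e-05), whereas the term of MELO3C007398.2 did not pass the test (interaction term 0.34, adjusted p = 0.603).

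Pectin genes moved in both directions. Polygalacturonases cut the pectin backbone once pectinesterases have removed its methyl groups, and both are known for their part in fruit softening. The polygalacturonase-like gene MELO3C013129.2 (chromosome 1, 12887684 to 12890250) stood at 383, 336 and 338 FPKM in CmNOR/Cmnor flesh, against 117, 117 and 119.5 FPKM in WT flesh. The 6 libraries fell into 2 tight groups (log2 fold change 1.57 ± 0.22 (SE), adjusted p = 1.59e-05). At harvest the order was the opposite one, with 13.1, 8.88 and 8.81 FPKM in CmNOR/Cmnor flesh, against 27, 36.8 and 19.1 FPKM in WT flesh (log2 fold change -1.32, adjusted p = 8.8e-05), and the interaction term was 2.89, adjusted p = 7.18e-07. PG1 (MELO3C015128.2), a polygalacturonase gene of ripening melon, stood at 111, 99.4 and 97.6 FPKM in CmNOR/Cmnor flesh, against 48.9, 41.1 and 39.3 FPKM in WT flesh (log2 fold change 1.24, adjusted p = 0.000513). PG2 (MELO3C027277.2) stood at 77.8, 77 and 74.9 FPKM in CmNOR/Cmnor flesh, against 48.2, 41.5 and 41.3 FPKM in WT flesh (adjusted p = 0.2). PG3 (MELO3C016494.2) stood at 58.8, 40.4 and 41 FPKM in CmNOR/Cmnor flesh, against 30.2, 23 and 24.9 FPKM in WT flesh (adjusted p = 0.168). Neither had overlapping groups, but neither passed the test, which takes its spread from all 36 libraries and not only from these 6. The pectinesterase/pectinesterase inhibitor 41 gene MELO3C002316.2 stood at 14.9, 10.6 and 20.8 FPKM in CmNOR/Cmnor flesh, against 3.1, 2.45 and 2.41 FPKM in WT flesh (log2 fold change 2.12, adjusted p = 2.12e-10). The pectinesterase 67 gene PE1 (MELO3C031619.2) stood at 5.76, 7.08 and 7.22 FPKM in CmNOR/Cmnor flesh, against 14.9, 16.7 and 18.6 FPKM in WT flesh (log2 fold change -1.21, adjusted p = 9.5e-08). A second gene of that description, PE2 (MELO3C031751.2), stood at 6.19, 4.43 and 3.88 FPKM in CmNOR/Cmnor flesh, against 9.73, 11.2 and 10.1 FPKM in WT flesh (log2 fold change -0.98, adjusted p = 0.000244). Both were lower in every CmNOR/Cmnor library than in any WT library. Over 138 tested pectin-degrading genes, 6 were higher and 12 lower (13.0% called, against 11% of all genes). Their summed level was 1155, 1082 and 1053 FPKM in CmNOR/Cmnor, against 835, 782 and 781 FPKM in WT, and MELO3C013129.2 had the highest level among them.

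**Figure D3:**
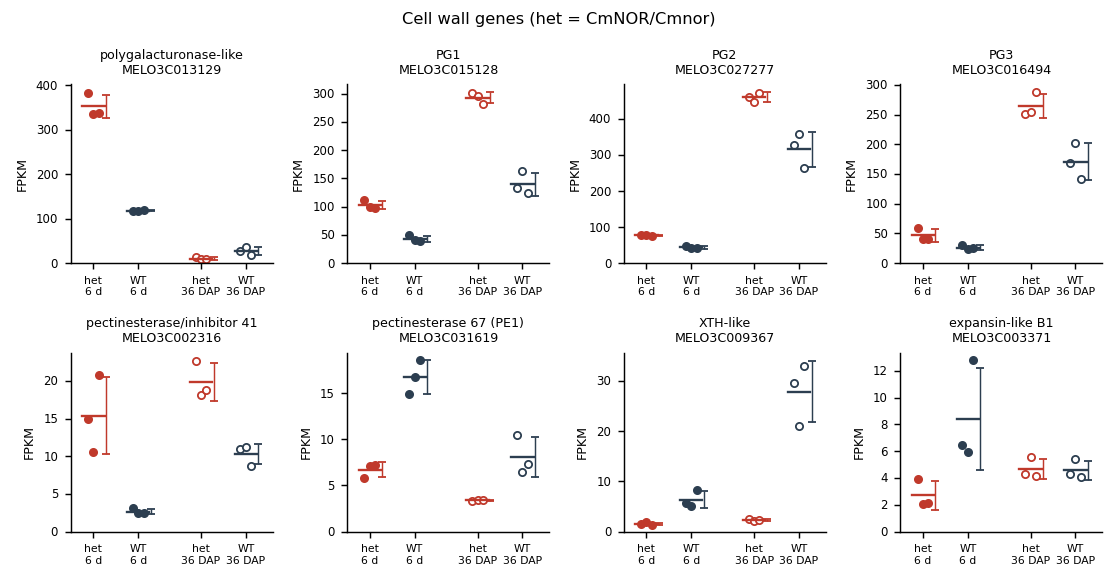
FPKM of 8 cell wall genes in each library, with CmNOR/Cmnor (het, red) left of WT (dark) after 6 d of storage (filled) and at 36 DAP (open). Lines are means and bars SD of 3 libraries. The polygalacturonase-like gene MELO3C013129.2 is higher in CmNOR/Cmnor after storage and lower at 36 DAP.

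Among the lists of genes that act on the other wall polymers, only the cellulose synthase and cellulose synthase-like genes were called in both directions. The xyloglucan endotransglucosylase/hydrolase (XTH) gene MELO3C009367.2, whose enzyme cuts and rejoins xyloglucan chains, stood at 1.51, 1.81 and 1.38 FPKM in CmNOR/Cmnor flesh, against 5.67, 5.03 and 8.26 FPKM in WT flesh (log2 fold change -1.49, adjusted p = 5.72e-07). Its difference was smaller than at harvest, where it stood at 2.47, 2.06 and 2.23 FPKM in CmNOR/Cmnor flesh, against 29.6, 21 and 32.9 FPKM in WT flesh (interaction term 1.63, adjusted p = 5.01e-05). Expansin-like B1 (MELO3C003371.2) stood at 3.95, 2.09 and 2.1 FPKM in CmNOR/Cmnor flesh, against 6.49, 5.91 and 12.8 FPKM in WT flesh (log2 fold change -1.30, adjusted p = 0.00144), below WT in all libraries. In all, 0 of 58 xyloglucan and expansin genes were higher and 4 lower by limma, where the background is 2.81% and 8.16%. At an unadjusted p under 0.05, 1 was higher and 6 lower. Of 93 cell wall glycosidase genes, 0 were higher and 4 lower by limma (4.30% called, below the 11% of all genes), or 4 and 12 at an unadjusted p under 0.05. Of 37 cellulose synthase and cellulose synthase-like genes, 4 were higher and 3 lower (18.9% called). The cellulose synthase-like D5 gene CSL (MELO3C017933.2), of a family that makes wall polysaccharide in tip-growing cells, stood at 2.01, 1.39 and 1.07 FPKM in CmNOR/Cmnor flesh, against 0.804, 0.561 and 0.731 FPKM in WT flesh (log2 fold change 0.54, adjusted p = 0.019), a call lost without WT replicate 2 and without CmNOR/Cmnor replicate 1. At harvest it stood at 15, 16.3 and 11.6 FPKM in CmNOR/Cmnor flesh, against 0.981, 0.575 and 0.535 FPKM in WT flesh (interaction term -2.63, adjusted p = 6.67e-09). The aspartic proteinase gene APN (MELO3C024582.2) stood at 72.7, 73.2 and 71.3 FPKM in CmNOR/Cmnor flesh, against 44.9, 40.02 and 49.6 FPKM in WT flesh (log2 fold change 0.68, adjusted p = 0.000841), also with a larger difference at harvest (interaction term -1.70, adjusted p = 8.45e-07). The cellulose synthase A subunits MELO3C003689.2 and MELO3C008022.2 were both lower (log2 fold changes -0.40 and -0.47), the first of them not with same median scaling. Of the other cell wall genes the study named, LRP rose (log2 fold change 0.63, adjusted p = 0.00373), while FAD and FERONIA did not pass the test (adjusted p = 0.187 and 0.357).

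Of the 7 water deprivation genes that the study named on these samples, which are thus not independent evidence of direction, 1 was higher and 4 lower. CER1-like FAH (MELO3C006254.2), whose Arabidopsis counterpart makes the alkanes of cuticular wax, stood at 65.4, 66.2 and 79.1 FPKM in CmNOR/Cmnor flesh, against 247, 141 and 171 FPKM in WT flesh (log2 fold change -1.36 ± 0.27 (SE), adjusted p = 0.00108). WT replicate 1 was the highest, and the gene was lower also without it (log2 fold change -1.14, adjusted p = 0.0128). The 3-ketoacyl-CoA synthase 11 gene MELO3C026623.2, which lengthens the fatty acids for wax, stood at 4.63, 6.63 and 9.04 FPKM in CmNOR/Cmnor flesh, against 20.4, 12.1 and 14.5 FPKM in WT flesh (log2 fold change -1.11, adjusted p = 0.00473). Of 33 cutin, suberin and wax genes, 0 were higher and 6 lower by limma (18.2% called, against 11% of all genes), with 1 higher and 6 lower under both scalings and 2 higher and 6 lower at an unadjusted p under 0.05. DHN1 (MELO3C016401.2), a dehydrin of the kind that protects proteins when cells dry, stood at 8.83, 6.85 and 6.79 FPKM in CmNOR/Cmnor flesh, against 20.9, 16.3 and 19.9 FPKM in WT flesh (log2 fold change -1.24, adjusted p = 0.00186). Its group of 17 dehydrin and late embryogenesis abundant genes had 1 higher and 3 lower (23.5% called, where 2.81% of all genes were higher and 8.16% lower). CalB (MELO3C009728.2), annotated as calmodulin-binding protein 25, stood at 171, 119 and 103 FPKM in CmNOR/Cmnor flesh, against 329, 316 and 328 FPKM in WT flesh (log2 fold change -1.33, adjusted p = 3.44e-06), and was lower at harvest too, with 89.8, 79 and 106 FPKM in CmNOR/Cmnor flesh, against 248, 251 and 259 FPKM in WT flesh (interaction term 0.13, adjusted p = 0.939). Annexin ANN (MELO3C018648.2), a calcium-dependent membrane-binding protein, stood at 117, 113 and 120.3 FPKM in CmNOR/Cmnor flesh, against 144, 154 and 167 FPKM in WT flesh (log2 fold change -0.41, adjusted p = 0.00341). ZAT10 (MELO3C016809.2), a zinc finger repressor of stress responses, stood at 400.2, 329 and 281 FPKM in CmNOR/Cmnor flesh, against 543, 383 and 496 FPKM in WT flesh. These overlapped and did not pass the test (adjusted p = 0.0877).

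Aquaporins, the water channels of the membranes, did not move as a group. The most abundant, PIP2-10 (MELO3C013347.2), stood at 11048, 9795 and 8857 FPKM in CmNOR/Cmnor flesh, against 6187, 6511 and 5919 FPKM in WT flesh. The groups did not overlap, yet its call was close to the threshold (log2 fold change 0.67, adjusted p = 0.043) and was lost in each of the 6 fits that left out a library. PIP1-2 (MELO3C005685.2) stood at 4855, 4685 and 4191 FPKM in CmNOR/Cmnor flesh, against 5166, 5691 and 5236 FPKM in WT flesh and did not pass the test (adjusted p = 0.309). The tonoplast channel TIP1-2 (MELO3C009377.2) was higher at 76.7, 92.8 and 88.8 FPKM in CmNOR/Cmnor flesh, against 60.4, 48.8 and 49.6 FPKM in WT flesh (log2 fold change 0.69, adjusted p = 0.00196). PIP1-1 (MELO3C025164.2) was lower at 134, 128 and 116 FPKM in CmNOR/Cmnor flesh, against 208, 181 and 199 FPKM in WT flesh (log2 fold change -0.63, adjusted p = 0.00431), except with same median scaling. In all, 2 of 34 aquaporin genes were higher and 2 lower (11.8% called).

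In the abscisic acid list, 3 of 30 tested genes were higher and 0 lower by limma, against a background of 2.81% and 8.16%, and at an unadjusted p under 0.05 there were 6 higher and 4 lower. NCED3 (MELO3C007127.2; chromosome 8, 991369 to 993401), whose enzyme cleaves carotenoids in the first committed step to abscisic acid, stood at 21.2, 19 and 20.5 FPKM in CmNOR/Cmnor flesh, against 4.67, 5.52 and 5.48 FPKM in WT flesh (log2 fold change 1.77 ± 0.14 (SE), adjusted p = 9.94e-10). Both groups were tight and lay nearly 4-fold apart, with a ratio of 3.88 ± 0.42. At harvest the levels were higher in both genotypes, with 76.7, 65.9 and 73.6 FPKM in CmNOR/Cmnor flesh, against 29.3, 34.1 and 27.3 FPKM in WT flesh, and the differences at the 2 times did not pass the test of their difference (interaction term 0.54, adjusted p = 0.106). The abscisic acid receptor PYR1-like gene MELO3C013854.2 stood at 118, 130.2 and 126 FPKM in CmNOR/Cmnor flesh, against 95.3, 91.3 and 85.8 FPKM in WT flesh (log2 fold change 0.45, adjusted p = 0.00051).

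Ethylene synthesis genes were, where called, lower, while the summed level of their list was higher in CmNOR/Cmnor. The most abundant by far, ACC oxidase 1 (MELO3C014437.2; named after its values were seen), stood at 16091, 15570.0 and 15103 FPKM in CmNOR/Cmnor flesh, against 10867, 10745 and 11725 FPKM in WT flesh. All CmNOR/Cmnor libraries lay above WT, with a ratio of the means of 1.40 ± 0.08. The difference did not pass the limma test, which takes its spread from all 36 libraries (log2 fold change 0.49 ± 0.25 (SE), adjusted p = 0.26). The ACC oxidase gene MELO3C019735.2 stood at 48.2, 33.1 and 39.5 FPKM in CmNOR/Cmnor flesh, against 74.6, 50.3 and 85.7 FPKM in WT flesh (log2 fold change -0.77, adjusted p = 0.00313), a fraction of that level. Of the 21 ACC synthase and oxidase genes, 0 were higher and 4 lower by limma (19.0% called), and 2 of the 4 are described only as homologs of ACC oxidase. At an unadjusted p under 0.05, 1 was higher and 5 lower. The list summed to 17081, 16673 and 16008 FPKM in CmNOR/Cmnor, against 11933, 11633 and 12649 FPKM in WT, and ACC oxidase 1 made up most of it.

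Ethylene-responsive factors split by member. ERF1 (MELO3C021306.2), a RAP2-3-like factor of the group linked to low-oxygen responses in Arabidopsis, stood at 211, 163 and 210.2 FPKM in CmNOR/Cmnor flesh, against 111, 74.3 and 75.6 FPKM in WT flesh (log2 fold change 1.17, adjusted p = 2.56e-06). At harvest its levels overlapped, with 200.1, 188 and 159 FPKM in CmNOR/Cmnor flesh, against 192, 175 and 249 FPKM in WT flesh, and the interaction term was 1.33, adjusted p = 0.000108. The B3 and AP2 domain repressor gene MELO3C012217.2 was higher too, at 92.8, 79.3 and 93.3 FPKM in CmNOR/Cmnor flesh, against 56.8, 56.9 and 51.6 FPKM in WT flesh (log2 fold change 0.67, adjusted p = 1.89e-06), and differed likewise from harvest (interaction term 0.70, adjusted p = 0.000223). ERF2 (MELO3C002624.2), annotated as ethylene-responsive transcription factor 8, stood at 5.08, 3.48 and 4.2 FPKM in CmNOR/Cmnor flesh, against 12.3, 8.21 and 12.1 FPKM in WT flesh (log2 fold change -1.17, adjusted p = 0.00516). The ERF4-like gene MELO3C007267.2, of a class of repressors, stood at 34.3, 29.8 and 18.8 FPKM in CmNOR/Cmnor flesh, against 71.7, 39.5 and 63.1 FPKM in WT flesh (log2 fold change -1.04, adjusted p = 0.000672). Over 114 such factors, 4 were higher and 12 lower (14.0% called), and with same median scaling 5 were higher and 6 lower. TARP (MELO3C026272.2), related to the enzymes that make auxin from tryptophan, stood at 0.774, 1.09 and 1.02 FPKM in CmNOR/Cmnor flesh, against 1.63, 2.252 and 2.34 FPKM in WT flesh (log2 fold change -0.65, adjusted p = 0.000268). The auxin-responsive ARF (MELO3C024323.2) stood at 21.6, 19.8 and 18.1 FPKM in CmNOR/Cmnor flesh, against 13.4, 8.14 and 7.55 FPKM in WT flesh (log2 fold change 0.999, adjusted p = 2.62e-05).

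Among NAC transcription factors, the family of CmNOR, 7 of 62 tested members were higher and 6 lower (21.0% called). NAC domain-containing protein 83-like (MELO3C017754.2) stood at 18.7, 16.6 and 12.7 FPKM in CmNOR/Cmnor flesh, against 42.5, 73.9 and 70.7 FPKM in WT flesh, the lowest WT library being more than 2-fold above the highest CmNOR/Cmnor library (log2 fold change -1.87 ± 0.20 (SE), adjusted p = 1.89e-07). At harvest it stood at 56.8, 52.3 and 55.4 FPKM in CmNOR/Cmnor flesh, against 124, 189 and 134 FPKM in WT flesh (interaction term -0.47, adjusted p = 0.424). NAC transcription factor 56 (MELO3C016540.2; chromosome 6, 27663292 to 27665351), stood at 910.3, 832 and 806 FPKM in CmNOR/Cmnor flesh, against 539, 532 and 537 FPKM in WT flesh (log2 fold change 0.66, adjusted p = 6.52e-05). It was higher at harvest too, with 1023, 1049.9 and 947 FPKM in CmNOR/Cmnor flesh, against 631, 733 and 573 FPKM in WT flesh (interaction term 0.02, adjusted p = 1). The sources used here do not say whether this gene is CmNOR. NAC92-like MELO3C022002.2, whose Arabidopsis namesake promotes senescence, stood at 19.3, 17.1 and 16.5 FPKM in CmNOR/Cmnor flesh, against 9.85, 10.2 and 10.4 FPKM in WT flesh (log2 fold change 0.74, adjusted p = 2.82e-05). In the WRKY family, known for defence regulation, 3 of 61 were higher and 7 lower (16.4% called, against 11% of all genes), and 4 were higher and 5 lower without WT replicate 1. WRKY33 (MELO3C020489.2) stood at 21.8, 26.1 and 18.8 FPKM in CmNOR/Cmnor flesh, against 104, 30.1 and 70.0 FPKM in WT flesh (log2 fold change -1.42, adjusted p = 0.000681). WRKY46 (MELO3C006037.2) stood at 0.998, 2.11 and 0.849 FPKM in CmNOR/Cmnor flesh, against 10.2, 2.72 and 8.51 FPKM in WT flesh (log2 fold change -1.70, adjusted p = 0.000346). In both, WT replicate 2 was close to the CmNOR/Cmnor range. WRKY31 (MELO3C007409.2) was lower only with WT replicate 1 (log2 fold change -1.63, adjusted p = 0.00577 with it and log2 fold change -0.88, adjusted p = 0.0579 without it).

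RLP (MELO3C016920.2; chromosome 7, 1127621 to 1129826), a receptor-like kinase gene that the study placed among plant-pathogen genes, stood at 78, 83.2 and 61.4 FPKM in CmNOR/Cmnor flesh, against 284, 328 and 287 FPKM in WT flesh (log2 fold change -2.01 ± 0.18 (SE), adjusted p = 1.22e-08). Both groups were even, and the gene was lower at harvest as well, with 6.73, 6.79 and 10.4 FPKM in CmNOR/Cmnor flesh, against 47.4, 59.4 and 44.7 FPKM in WT flesh. Of 451 receptor-like kinase genes, 6 were higher and 30 lower (7.98% called, below the 11% of all genes), and 4 and 24 without WT replicate 1. Thaumatin-like protein 1b (MELO3C009383.2), of the pathogenesis-related family 5, stood at 4.5, 3.18 and 3.59 FPKM in CmNOR/Cmnor flesh, against 14.2, 12.4 and 24 FPKM in WT flesh (log2 fold change -1.86, adjusted p = 1.73e-06). Acidic endochitinase-like MELO3C005859.2, which degrades fungal chitin, stood at 0.809, 0.365 and 0.584 FPKM in CmNOR/Cmnor flesh, against 41.8, 2.53 and 1.65 FPKM in WT flesh, where WT replicate 1 alone was high (log2 fold change -2.23, adjusted p = 0.0062 with it and log2 fold change -0.96, adjusted p = 0.00813 without it). MLP-like protein 328 (MELO3C015005.2), of the major latex protein family, stood at 26.5, 25.7 and 21.1 FPKM in CmNOR/Cmnor flesh, against 66.8, 95.3 and 92.5 FPKM in WT flesh (log2 fold change -1.74, adjusted p = 0.00895). At harvest it was the higher one in CmNOR/Cmnor, with 337, 414 and 507 FPKM in CmNOR/Cmnor flesh, against 151, 133 and 101 FPKM in WT flesh (interaction term -3.44, adjusted p = 0.000663). Over 119 pathogenesis-related and chitinase genes, 0 were higher and 12 lower by limma (10.1% called), and 9 were lower without WT replicate 1. At an unadjusted p under 0.05, 4 were higher and 19 lower, and 2 were higher and 8 lower under either scaling.

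Of the 4 calcium sensor genes that the study named, 3 were higher. CalB4 (MELO3C010866.2), a CML10 gene, stood at 78.2, 42.5 and 35.6 FPKM in CmNOR/Cmnor flesh, against 28.6, 26.1 and 21.8 FPKM in WT flesh (log2 fold change 0.93, adjusted p = 0.00146). CalB1 (MELO3C010863.2) stood at 7.78, 3.73 and 2.86 FPKM in CmNOR/Cmnor flesh, against 1.97, 2.11 and 1.99 FPKM in WT flesh (log2 fold change 0.85, adjusted p = 0.00745). CalB3 (MELO3C018445.2) stood at 7.41, 3.87 and 2.86 FPKM in CmNOR/Cmnor flesh, against 2.76, 1.36 and 2.1 FPKM in WT flesh (log2 fold change 0.84, adjusted p = 0.0196). CmNOR/Cmnor replicate 1 was the highest in all of them, and the calls of CalB1 and CalB3 were lost without it, that of CalB3 also without WT replicate 2. CalB2 (MELO3C010874.2) stood at 117, 61.4 and 48.7 FPKM in CmNOR/Cmnor flesh, against 28.3, 33.8 and 33.5 FPKM in WT flesh and did not pass the test (adjusted p = 0.112). These genes were chosen by the study on these samples, so their direction is not independent evidence. Another CML10 gene, MELO3C010869.2, stood at 1.14, 0.477 and 0.276 FPKM in CmNOR/Cmnor flesh, against 3.6, 2.36 and 2.53 FPKM in WT flesh, thus lower (log2 fold change -1.25, adjusted p = 0.000195). Over 84 calcium sensor genes 5 were higher and 8 lower (15.5% called), and 3 and 6 without WT replicate 1.

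Sugar genes were called in both directions. The acid beta-fructofuranosidase gene MELO3C005363.2, a vacuolar type of invertase that splits sucrose, stood at 6.08, 9.18 and 4.27 FPKM in CmNOR/Cmnor flesh, against 20.2, 22.1 and 19.98 FPKM in WT flesh (log2 fold change -1.58 ± 0.19 (SE), adjusted p = 1.23e-06). Sucrose synthase 5 (Susy, MELO3C025101.2) stood at 27, 14.6 and 20.1 FPKM in CmNOR/Cmnor flesh, against 7.04, 7.09 and 8.21 FPKM in WT flesh, above WT without overlap (log2 fold change 1.31, adjusted p = 9.65e-05). CmINV2 (MELO3C009488.2), a cell wall invertase gene, stood at 0.599, 1.36 and 0.496 FPKM in CmNOR/Cmnor flesh, against 1.88, 2.88 and 2.6 FPKM in WT flesh (log2 fold change -0.94, adjusted p = 0.00144). The invertase inhibitor gene MELO3C022457.2 stood at 2.16, 1.95 and 3.15 FPKM in CmNOR/Cmnor flesh, against 0.847, 1.48 and 0.742 FPKM in WT flesh (log2 fold change 0.76, adjusted p = 0.00143). SWEET12-like MELO3C026183.2, of a family of sugar exporters, stood at 2.7, 1.82 and 2.16 FPKM in CmNOR/Cmnor flesh, against 7.92, 8.39 and 7.52 FPKM in WT flesh (log2 fold change -1.48, adjusted p = 9.86e-05), and its levels at harvest overlapped (interaction term -1.65, adjusted p = 0.0025). SWEET3 (MELO3C005869.2) stood at 48, 32.8 and 28.8 FPKM in CmNOR/Cmnor flesh, against 21.3, 44.7 and 65.2 FPKM in WT flesh, which overlapped (adjusted p = 1). HK (MELO3C015169.2), a hexokinase gene, and VST1 (MELO3C013366.2) did not pass the test either (adjusted p = 0.241 and 1). Over the 299 genes of starch and sucrose metabolism, 7 were higher and 36 lower (14.4% called), and this changed to 15 higher and 19 lower with same median scaling.

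Carotenoid synthesis differed in few of its steps. PSY2 (MELO3C014677.2), 1 of the 2 phytoene synthase genes of the entry step that were followed, stood at 20.2, 17.8 and 16.2 FPKM in CmNOR/Cmnor flesh, against 31.5, 41.5 and 37.1 FPKM in WT flesh (log2 fold change -0.98, adjusted p = 6.07e-05). PSY1 (MELO3C025102.2), several times more abundant, stood at 225, 220.4 and 236 FPKM in CmNOR/Cmnor flesh, against 186, 205 and 199.7 FPKM in WT flesh and did not pass the test (adjusted p = 0.131). PDS, ZISO, ZDS, LCYE and LCYB, which follow in the pathway, had log2 fold changes of -0.35 to 0.06 and none passed the test, so 1 of the 7 genes was called. Beta-carotene isomerase D27 (MELO3C014318.2), of the branch to strigolactones, stood at 2.32, 2.34 and 1.65 FPKM in CmNOR/Cmnor flesh, against 5.44, 9.44 and 8.95 FPKM in WT flesh (log2 fold change -1.503, adjusted p = 0.000406). Carotenoid cleavage dioxygenase 4 (MELO3C016224.2), which degrades carotenoids, stood at 257, 278 and 264 FPKM in CmNOR/Cmnor flesh, against 218, 203 and 193 FPKM in WT flesh (log2 fold change 0.38, adjusted p = 0.0149). In the KEGG list of 79 carotenoid genes, which also holds genes of abscisic acid such as NCED3, 3 were higher and 11 lower (17.7% called).

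The lists of lipid oxidation and phenylpropanoids had lower calls above the background share. Of 29 lipoxygenase genes, whose enzymes start the path to aroma aldehydes and jasmonates, 0 were higher and 8 lower by limma (27.6% called), with the same counts at an unadjusted p under 0.05 and 6 lower without WT replicate 1. Linoleate 13S-lipoxygenase 2-1 (MELO3C014637.2) stood at 13.2, 14.8 and 18.4 FPKM in CmNOR/Cmnor flesh, against 26.9, 26.5 and 29 FPKM in WT flesh (log2 fold change -0.80, adjusted p = 0.000249). Lipoxygenase 3-1 (MELO3C024348.2) stood at 0.356, 0.472 and 0.218 FPKM in CmNOR/Cmnor flesh, against 15.1, 1.29 and 1.86 FPKM in WT flesh, with WT replicate 1 far above the others, and did not pass the test without it (log2 fold change -1.81, adjusted p = 0.00675 with it and log2 fold change -0.93, adjusted p = 0.0644 without it). Of 70 phenylpropanoid genes, 1 was higher and 16 lower (24.3% called), and 1 and 12 without WT replicate 1. Cytochrome P450 84A1-like (MELO3C013427.2), a ferulate 5-hydroxylase type of enzyme of lignin units, stood at 22.1, 25.2 and 23.9 FPKM in CmNOR/Cmnor flesh, against 79.6, 75.1 and 69.2 FPKM in WT flesh (log2 fold change -1.61, adjusted p = 5.99e-08). Trans-cinnamate 4-monooxygenase (MELO3C019585.2), of an early step, stood at 0.274, 0.413 and 0.401 FPKM in CmNOR/Cmnor flesh, against 3.01, 1.27 and 2.4 FPKM in WT flesh (log2 fold change -1.21, adjusted p = 2.52e-06). Of 21 alcohol dehydrogenase and pyruvate decarboxylase genes, 0 were higher and 6 lower by limma (28.6% called), among them cinnamyl alcohol dehydrogenases, which belong to lignin rather than to fermentation. At an unadjusted p under 0.05, 1 was higher and 7 lower. The summed level of this list was nevertheless higher, at 8589, 9413 and 10471 FPKM in CmNOR/Cmnor, against 7883, 7957 and 7818 FPKM in WT. Alcohol dehydrogenase-like 7 (MELO3C026553.2) stood at 24.3, 33.2 and 24.1 FPKM in CmNOR/Cmnor flesh, against 49.5, 44.9 and 42.6 FPKM in WT flesh (log2 fold change -0.74, adjusted p = 3.93e-05). None of the 4 alcohol acyltransferase genes, which form esters, was called by limma or had an unadjusted p under 0.05.

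**Figure D4:**
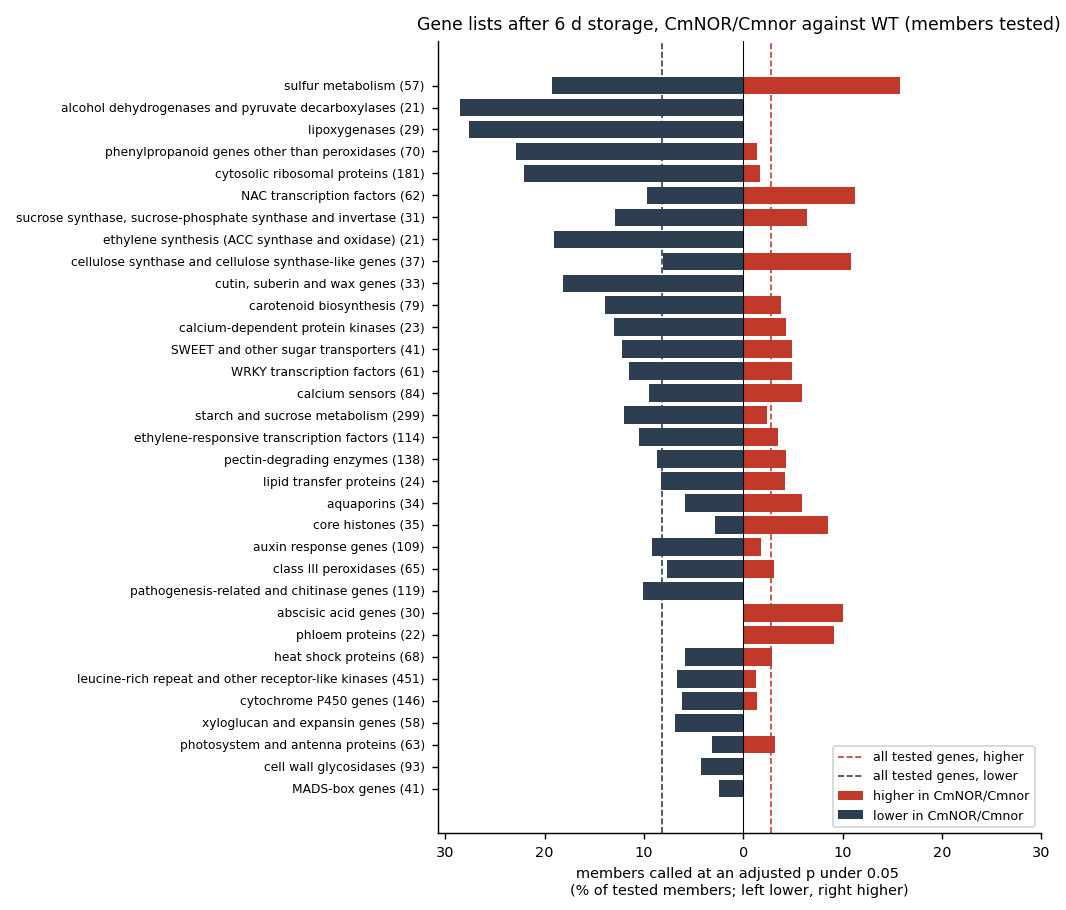
Share of the tested members of each list that were called at an adjusted p under 0.05 after storage, higher in CmNOR/Cmnor to the right and lower to the left, for lists with at least 20 tested members (number in brackets). Dashed lines are the shares over all tested genes, 2.81% higher and 8.16% lower.

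Cytosolic ribosomal protein genes were lower in number but by little. Of 181 tested, 3 were higher and 40 lower (23.8% called), with a median log2 fold change of -0.21 among the 160 members with at least 1 FPKM, against -0.10 over all such genes. This depended on the scaling, since 13 were lower after upper-quartile scaling and 4 after scaling to the same median. The L18a gene MELO3C007141.2 stood at 102, 101 and 120.2 FPKM in CmNOR/Cmnor flesh, against 147, 153 and 174 FPKM in WT flesh (log2 fold change -0.55, adjusted p = 9.69e-06) and was called under each of these. Of 63 photosystem and antenna genes 2 were higher and 2 lower (6.35% called), and their summed level overlapped, at 30486, 28770 and 31853 FPKM in CmNOR/Cmnor, against 27052, 30229 and 28703 FPKM in WT. At harvest 27 of them were higher and 3 lower, where 6.90% of all genes were higher and 8.96% lower. Heat shock proteins had 2 higher and 4 lower of 68 (8.82% called, against 11% of all genes). At harvest 8 of the heat shock genes were higher and 23 lower. Their summed level at harvest was 3690, 3404 and 3301 FPKM in CmNOR/Cmnor, against 9952, 5863 and 12307 FPKM in WT, so the WT libraries at harvest were uneven in these genes. Core histones had 3 higher and 1 lower of 35 (11.4% called, close to the 11% of all genes).

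Markers of other tissues were read for the make-up of the samples. Of 22 phloem protein genes, 2 were higher and 0 lower by limma (9.09% called, against 11% of all genes). At an unadjusted p under 0.05, 4 were higher and 0 lower. Their sum was 128, 84.3 and 75.7 FPKM in CmNOR/Cmnor, against 60.6, 54.0 and 69.8 FPKM in WT. The PHLOEM PROTEIN 2-LIKE A1-like gene MELO3C002874.2 made up much of it, at 56.2, 34.8 and 26.8 FPKM in CmNOR/Cmnor flesh, against 15.6, 10.04 and 13.6 FPKM in WT flesh (log2 fold change 1.47, adjusted p = 0.000841). Its difference was smaller than at harvest, where it stood at 375, 428 and 415 FPKM in CmNOR/Cmnor flesh, against 17.4, 7.42 and 11.9 FPKM in WT flesh (interaction term -3.54, adjusted p = 1.44e-06). The rind was separated from the flesh before sampling, and the 33 cutin, suberin and wax genes were summed as its markers. Their sum was 119, 116 and 134 FPKM in CmNOR/Cmnor, against 316, 188 and 230 FPKM in WT. FAH made up the most of it, at 65.4, 66.2 and 79.1 FPKM in CmNOR/Cmnor, against 247, 141 and 171 FPKM in WT. At harvest FAH averaged 1.10 FPKM in CmNOR/Cmnor and 3.14 FPKM in WT. The sums at harvest overlapped, at 48.5 to 53.2 FPKM in CmNOR/Cmnor and 45.6 to 68.8 FPKM in WT. The gap after storage thus rests mostly on FAH and cannot show whether the samples differed in rind. The 14 seed storage and oil body genes summed to 64.2, 59.1 and 54.3 FPKM in CmNOR/Cmnor, against 66.6, 68.6 and 72.0 FPKM in WT. Among them 11S globulin (MELO3C012886.2) was lower (log2 fold change -1.02). The part of these tissues in the other differences was not tested.

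The differences after storage were then set against those at harvest, for which other CmNOR/Cmnor and WT libraries were used. At 36 DAP, 3949 genes were called (15.9%), with 263 DEGs higher (1.06%) and 304 lower (1.22%). At the adjusted p alone, 6.90% of all genes were higher there and 8.96% lower. Of the 113 higher DEGs after storage, 53 were called higher at harvest and 2 lower, and 95 had the same sign. Of the 225 lower DEGs, 97 were called lower at harvest and 8 higher, and 180 had the same sign. DEGs at both times in the same direction numbered 29 higher, which is 25.7% of the storage list and 11.03% of the harvest list, and 65 lower, which is 28.9% and 21.4%. Without WT replicate 1, 63 of 125 higher DEGs were called higher at harvest and 84 of 183 lower DEGs called lower. The interaction of genotype with storage, which tests whether the difference from WT is another after storage than at harvest, was called in 1643 genes (6.60%). The term was positive in 570 of them (2.29%) and negative in 1073 (4.31%). It was called in 60 of the 113 higher and 85 of the 225 lower DEGs. The DEGs were chosen for their difference after storage, which is itself part of the interaction term. That choice raises these counts, so they cannot be read against the share of all genes. In 21 of the higher and 60 of the lower DEGs both genotypes were below 1 FPKM on average at 36 DAP.

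**Figure D5:**
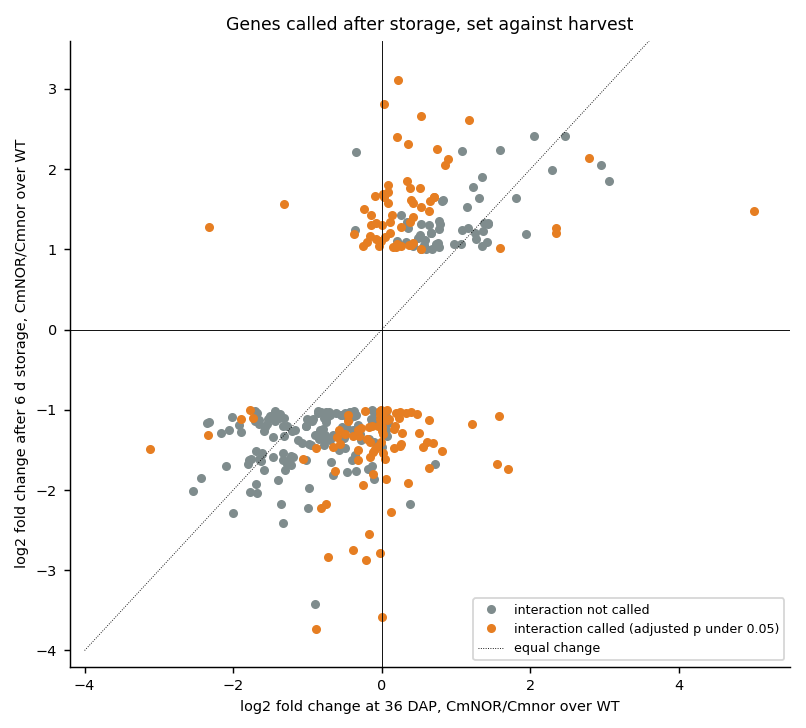
log2 fold change of CmNOR/Cmnor over WT after 6 d of storage (vertical) against that at 36 DAP (horizontal) for the 338 DEGs of storage. Orange points are the 145 genes with a called interaction term, and the dotted line marks equal change; no point lies between -1 and 1 on the vertical axis because the genes were chosen for it.

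Cmnor flesh of the same storage time stood far from both. Against the same 3 WT libraries it had 5331 higher (21.4%) and 1696 lower DEGs (6.81%). Because the WT libraries are shared, its values are given only side by side. The ATP sulfurylase gene MELO3C006493.2 stood at 116, 101 and 116 FPKM in Cmnor flesh, between the levels of WT and CmNOR/Cmnor, and the APS reductase gene MELO3C002450.2 at 16.1, 11.7 and 15.8 FPKM, likewise between them. The polygalacturonase-like gene MELO3C013129.2, higher in CmNOR/Cmnor than in WT, stood at 0.323, 1.32 and 1.07 FPKM in Cmnor, and NCED3 at 0.0893, 0.5 and 0.28 FPKM, so that in both the heterozygote was the highest of the 3 genotypes. FAH stood at 0.276, 1.49 and 0.508 FPKM in Cmnor and RLP at 7.21, 9.21 and 9.46 FPKM. In both, CmNOR/Cmnor lay between Cmnor and WT. NAC83-like MELO3C017754.2 stood at 116, 117 and 118 FPKM in Cmnor, above WT, with CmNOR/Cmnor the lowest.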

How the data were processed

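RNA was sequenced from melon flesh in 36 libraries of 12 groups, and 6 of the libraries are compared here. Per the labels and methods, the authors aligned reads to Melon (DHL92) v3.6.1 with HISAT2 and deposited FPKM per gene. The submitters' processing notes also list TopHat2, StringTie and Cufflinks. The sources used here give no versions, counting tool, strand handling or filters. FPKM carry no counts, so no count test was run. limma 3.58.1 (R 4.3.3, trend) was fitted on log2(FPKM + 1) over all 36 libraries in 12 groups without covariates, and p-values were adjusted by Benjamini-Hochberg over 24901 genes. The fit was tested on simulated data. Named genes are those of the study, the 15 highest and 15 lowest called genes with at least 5 FPKM and no overlap of groups, up to 3 per list and direction, and the 5 highest and 5 lowest interaction terms. Members and lists were chosen with earlier results of these data known. Alternatives were other pseudocounts, filters, scalings, thresholds, sample sets, a replicate block and leaving out each library. Gene descriptions, coordinates and pathways were taken from the annotation columns of the deposited table.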

Additional observations from a re-analysis of the deposited data

Results flagged for a closer look

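The difference between CmNOR/Cmnor and WT flesh was another after storage than at harvest in 1643 genes by the interaction test of limma. Among genes with at least 5 FPKM and no overlap of the groups after storage, the largest negative terms were those of MELO3C027476.2 (CYP21-1, -3.58), MELO3C002874.2 (a phloem protein, -3.54), MELO3C015005.2 (MLP-like protein 328, -3.44), MELO3C031397.2 (no description, -3.33) and MELO3C023420.2 (unknown role, -2.85). The largest positive terms were those of MELO3C035594.2 (an AFG1-like ATPase, 3.61), MELO3C031646.2 (no description, 2.90), MELO3C013129.2 (polygalacturonase-like, 2.89), MELO3C030866.2 (hypothetical, 2.78) and MELO3C005787.2 (uncharacterized, 2.37). MELO3C005787.2 stood at 785, 776 and 767 FPKM in CmNOR/Cmnor flesh, against 539, 511 and 455 FPKM in WT flesh after storage, where its difference did not pass the test (adjusted p = 0.165), and at 33.4, 26.7 and 27 FPKM in CmNOR/Cmnor flesh, against 91.5, 114 and 91.2 FPKM in WT flesh at harvest. MELO3C035594.2 stood at 4.35, 3.38 and 7.98 FPKM in CmNOR/Cmnor flesh, against 0.773, 2.44 and 1.42 FPKM in WT flesh after storage (log2 fold change 1.28, adjusted p = 0.00165) and at 2.8, 3.04 and 3.42 FPKM in CmNOR/Cmnor flesh, against 19.3, 17.3 and 22.2 FPKM in WT flesh at harvest, thus on opposite sides of WT. MELO3C031397.2 stood at 6, 1.9 and 5.37 FPKM in CmNOR/Cmnor flesh, against 10.2, 14 and 43.2 FPKM in WT flesh after storage, where WT replicate 3 was high (adjusted p = 0.0737), and at 2.86, 2.55 and 2.93 FPKM in CmNOR/Cmnor flesh, against 0.774, 0.262 and 0.372 FPKM in WT flesh at harvest.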

How the results depend on the processing

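The DEG count of 338 (113 higher, 225 lower) was 854 (300 and 554) with a pseudocount of 0.1, 93 (36 and 57) in a fit of only the 6 libraries compared, and 2732 (700 and 2032) with no fold threshold. With same median scaling the higher DEGs numbered 180. Leaving out each library gave 307 to 402 DEGs, 88 to 163 of them higher and 183 to 306 lower. The fit with a replicate block on the 6 libraries called 0 DEGs, 0 higher and 0 lower by limma, with 4152 genes at an unadjusted p under 0.05. The deviations of samples of the same number from their group means had correlations of -0.0062, 0.0675 and -0.0687. Of the 3 CmNOR/Cmnor libraries, 1 correlated best with its own number. With 3 libraries per group, this check cannot decide whether the numbers pair the samples. The interaction count of 1643 (570 and 1073) was 857 (303 and 554) with only the 12 libraries compared and 1188 to 1717 (418 to 641 and 770 to 1216) on leaving out a library. No named gene reversed its direction in an alternative if it passed the test there or in the main fit. A change of sign where neither passed was counted as kept. By this rule 1896 gene values kept their side of the threshold, 482 lost it and 5 gained it. Of the interaction terms, 153 values kept it and 17 lost it, and of the list counts 252 stayed within 1.5 times and 188 did not. The runs of gene lists without WT replicate 1 were chosen after seeing the data. The cause of these changes was not tested beyond the fewer samples in the smaller fits. Depth is known only as an estimate from FPKM steps, so genes near 0.03 FPKM rest on about 1 fragment.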
